A study of Mus musculus with 12 samples.

Results

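The respiratory chain genes described here are the protein-coding genes whose symbols mark a subunit of complexes I to IV or of the ATP synthase (complex V), together with every protein-coding gene of mitochondrial DNA. They were chosen by symbol alone (Ndufa, b, c, s or v with a number, Sdha to Sdhd, Uqcr, Cox4 to Cox8, Atp5 and mt-), and 94 of the 14195 genes in the table were members. Of these, 81 were nuclear-encoded, with 37 in complex I, 4 in complex II, 8 in complex III, 15 in complex IV and 17 in complex V. The other 13 were mitochondrially encoded, with 7 in complex I, 1 in complex III, 3 in complex IV and 2 in complex V. Complexes were assigned by symbol too, so complex I here includes Ndufa4, which is known to belong to complex IV, and its relative Ndufa4l2. Of the 97 annotated genes that the symbols match, 3 were not analysed here, namely Cox4i2, Cox7b2 and Cox8c.

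Livers of 12 mice were sequenced, 6 in each of a PZH and a control group. All were male mice of a strain labelled C57BL/8, which the methods give as C57BL/6J, aged 6 weeks at the start and killed in week 8. Both groups received CCl4, a solvent that injures hepatocytes and leads to fibrosis, in corn oil by intraperitoneal injection 2 times a week. The PZH group also received PZH, the herbal preparation Pien Tze Huang of traditional Chinese medicine, into the stomach once a day, and the control group received double distilled water in its place, so no mouse was free of CCl4. The values are FPKM, the fragments of a transcript divided by its length and by the size of the library, and a gene's FPKM is the sum of its listed transcripts. The comparison asks whether the transcripts of the respiratory chain differ in level between CCl4-treated livers with and without PZH. The authors report obvious fibrosis in the control group and very little in the PZH group at the end of the experiment. They also report lower serum levels of the liver enzymes ALT and AST in the PZH group. The groups thus differed in liver injury as well as in PZH, and the part of injury in the values below was not tested.

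The respiratory chain sits in the inner mitochondrial membrane. Complexes I and II take electrons from NADH and succinate, complex III passes them to cytochrome c, complex IV passes them to oxygen, and the proton gradient built on the way drives the ATP synthase. Most subunits are encoded in the nucleus and imported, a few core subunits are encoded in mitochondrial DNA, and hepatocytes are rich in mitochondria.

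Mitochondrial DNA is read as long RNAs from both strands, which are then cut into shorter messages, and neighbouring genes can share bases. This matters for the values, since fragments from shared bases cannot be given to 1 gene with certainty. The longest overlap was that of mt-Atp8 and mt-Atp6, both subunits of the ATP synthase, whose shared 43 bases at chrM:7927-7969 (GRCm38, plus strand) are shown with the start codon of mt-Atp6 in capitals.
mt-Atp8 and mt-Atp6 shared bases: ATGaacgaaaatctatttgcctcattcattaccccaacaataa
mt-Nd4l and mt-Nd4 shared 7 bases, mt-Atp6 and mt-Co3 shared 1 base, and mt-Nd5 and mt-Nd6 shared 14 bases on opposite strands. The levels of these neighbours were therefore not fully independent of each other.

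For the nuclear-encoded members, the promoters of 3 genes that rose in the PZH group are shown because each held at least 2 of 4 motifs of factors known for respiratory genes. Atp5j, Atp5l and Cox6a1 also held 2 motifs but were not called, and their promoters are not shown. The motifs were GCGCATGCG for NRF1, CCGGAAG for the ETS family to which GABPA belongs, AAGATGG for YY1 and TGACCTTGA for ESRRA, each searched on both strands. Each window runs 5′ to 3′ along the gene, from 250 bases before to 50 bases after the RefSeq start on GRCm38.p6, and capitals mark the motifs. Atp5k (chr5:108434350-108434649, minus strand) encodes subunit e of the ATP synthase, and its 2 overlapping NRF1 matches on opposite strands form 1 run of capitals. Sdhd (chr9:50603800-50604099, minus strand) encodes a membrane anchor of complex II, and Uqcr11 (chr10:80406772-80407071, minus strand) encodes a small subunit of complex III.
Atp5k: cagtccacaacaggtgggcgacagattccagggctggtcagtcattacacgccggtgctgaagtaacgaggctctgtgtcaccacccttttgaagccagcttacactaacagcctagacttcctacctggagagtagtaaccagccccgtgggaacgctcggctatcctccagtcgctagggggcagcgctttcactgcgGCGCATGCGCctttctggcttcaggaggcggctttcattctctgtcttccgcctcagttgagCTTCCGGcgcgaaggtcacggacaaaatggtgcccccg
Sdhd: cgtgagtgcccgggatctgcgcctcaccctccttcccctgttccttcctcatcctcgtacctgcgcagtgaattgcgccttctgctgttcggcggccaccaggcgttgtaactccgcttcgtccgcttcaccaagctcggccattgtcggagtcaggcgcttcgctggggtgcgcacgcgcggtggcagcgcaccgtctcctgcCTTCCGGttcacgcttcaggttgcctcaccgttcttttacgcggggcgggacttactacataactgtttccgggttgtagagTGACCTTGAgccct
Uqcr11: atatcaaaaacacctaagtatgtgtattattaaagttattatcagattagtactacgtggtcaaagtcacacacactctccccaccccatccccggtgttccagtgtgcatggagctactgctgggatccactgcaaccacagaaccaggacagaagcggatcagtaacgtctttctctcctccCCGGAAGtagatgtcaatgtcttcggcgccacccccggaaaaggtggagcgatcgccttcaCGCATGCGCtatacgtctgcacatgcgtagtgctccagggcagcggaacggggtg

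Of the 81 nuclear-encoded members, 65 matched a RefSeq promoter by symbol, with 70 promoters in all. The NRF1 motif stood in 11.4% of these member promoters, in 3.28% of the 13946 promoters of genes in the table and in 1.75% of all 32851 promoters. The ETS motif stood in 22.9% of member promoters against 15.8% of those of table genes and 8.86% of all. YY1 and ESRRA motifs stood in 14.3% and 2.86% of member promoters, against 6.34% and 0.423% of all promoters. Of all 65 matched members, 8 held the NRF1 motif, 16 the ETS motif, 10 the YY1 motif and 2 the ESRRA motif. Among the 17 of them that rose in the PZH group, the counts were 2, 5, 1 and 1 in that order. Most of the matched members that rose thus held none of these letters in the window, and a link of motifs to the rises was not tested.

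The tissue was checked against hepatocyte markers, and all 12 were in the table, with Alb at a mean of 24059 FPKM in control livers and 38437 FPKM in PZH livers. Of these markers, 5 rose, 2 fell and 5 were not called. Their summed FPKM, most of it from Alb, ran from 29107 to 43287 in control livers and from 46804 to 64635 in PZH livers. Of the marker lists of other cell types, macrophage markers had 5 of 11 higher and 2 lower, stellate cell markers 3 of 11 higher and 2 lower, and neutrophil markers 0 of 7 higher and 3 lower, while summed lymphocyte markers stayed under 6.30 FPKM in every mouse. Endothelial markers had 0 of 9 higher and 2 lower, bile duct markers 0 of 6 higher and 1 lower, and red blood cell markers 1 of 6 higher and 0 lower. These marker counts stand beside 12.7% of all genes called higher and 32.1% called lower. Of tissues rich in respiratory chain messages, brown fat had 6 of 6 markers in the table, which summed to at most 6.40 FPKM in any mouse, and skeletal muscle had only 2 of 9, which summed to at most 0.529 FPKM. Of the brown fat markers, which include the members Cox7a1 and Cox8b, 1 was higher. Pancreas had 2 of 7 markers in the table, 1 of them higher. They summed to 2.49 to 6.42 FPKM in control livers and 6.93 to 11.2 FPKM in PZH livers. The part of the higher sum of hepatocyte markers in the values below was not tested, and in bulk liver more cells of a type cannot be told apart from more RNA per cell. Over all genes the median log2 fold change was -0.11, on the log2(FPKM + 1) scale used for every fold change here, so the typical gene was listed lower in the PZH group and each change below can be read against that shift.

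In the PZH group 18 of the 81 nuclear-encoded members rose and 0 fell (limma, adjusted p under 0.05). This is 22.2% higher, where over all 14195 genes 44.8% were called, 12.7% higher and 32.1% lower. Of the 13 mitochondrially encoded members 4 rose and 0 fell. The median log2 fold change was 0.12 over the nuclear-encoded and 0.30 over the mitochondrially encoded members. Changes were small on the log2(FPKM + 1) scale, where no member passed the 2-fold criterion with an unadjusted p under 0.05 that 4.02% of all genes passed. Low members move less on this scale. The mean FPKM of Cox6b2 and Ndufa4l2 was 2.14-fold and 2.32-fold higher in the PZH group, and that of Ndufa12 was lower, at 0.469-fold. In all, 71 of the 94 members had a log2 fold change above 0, of which 59 were nuclear-encoded and 12 mitochondrially encoded. The median over all genes was -0.11, and their share above 0 is not given here. Those 12 come from shared long RNAs, so their signs are not independent of each other.

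The count depended on how the mice were put on 1 scale. With each mouse divided by its median-ratio scale factor, which takes away the shift of the typical gene, 37 nuclear-encoded and 12 mitochondrially encoded members rose and again 0 fell. Under that scaling 50.6% of all called genes were higher in the PZH group, against 28.3% on FPKM as deposited, and 39.1% of all genes were called, 19.8% higher and 19.3% lower. The number of nuclear-encoded members that fell was 0 under both.

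Mitochondrially encoded messages were the most abundant members, and their sum was higher in most PZH mice. The summed FPKM of the 13 genes was 21159, 24435 and 29505 in the control group (lowest, median and highest) and 25996, 31334 and 35214 in the PZH group. Control mice 1 and 2 were the highest controls and PZH mice 5 and 6 the lowest of their group, so the groups overlapped. The mean sum of 24988 ± 3402 (SD, n = 6) for control livers made up 7.54% of all protein-coding FPKM, and that of 30619 ± 3822 (SD, n = 6) for PZH livers made up 8.97%.

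Nuclear-encoded members summed to far less. Their summed FPKM was 3947, 4019 and 4349 in the control group and 3827, 4308 and 4832 in the PZH group, with PZH mouse 2 the lowest and PZH mouse 1 the highest of all 12. The median FPKM over the 81 genes of a mouse ran from 30.2 to 33.6 in the control group and from 33.8 to 41.7 in the PZH group, without overlap. The ratio of the mitochondrially encoded to the nuclear-encoded sum does not depend on the scaling of a mouse, and it averaged 6.15 ± 0.892 (SD, n = 6) for control and 7.06 ± 1.09 (SD, n = 6) for PZH livers. The ratio ranged from 5.06 to 7.19 and from 5.51 to 8.48, so the groups overlapped broadly.

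**Figure D1:**
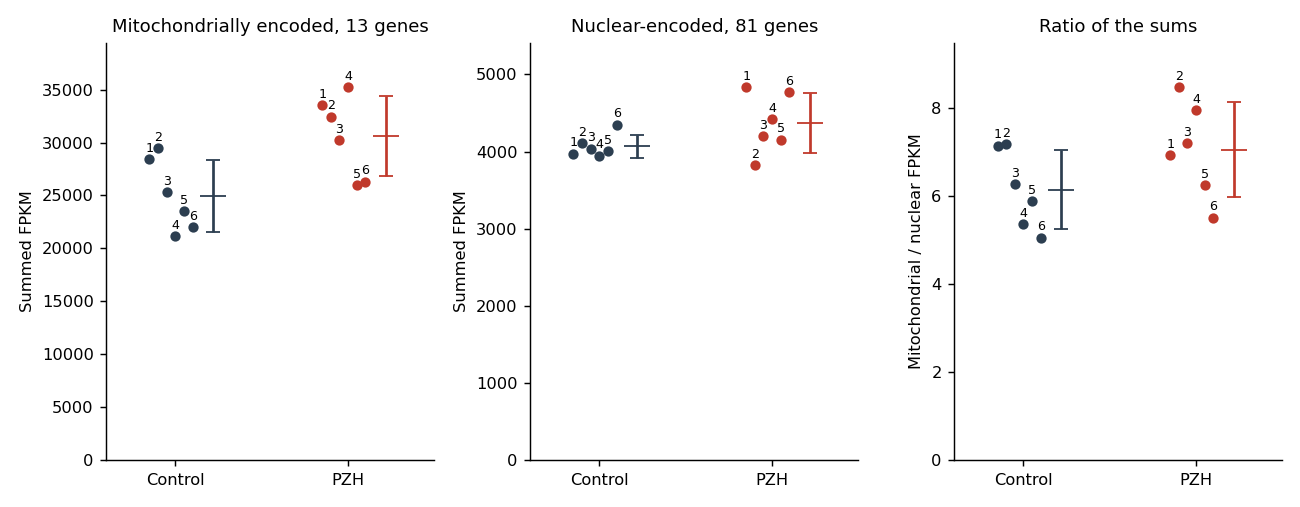
Summed FPKM of the 13 mitochondrially encoded members (left), summed FPKM of the 81 nuclear-encoded members (middle) and the ratio of the sums (right), with 1 numbered point per mouse and the mean ± SD of 6 mice beside each group. The mitochondrial sums ran from 21159 to 29505 in the control group and from 25996 to 35214 in the PZH group, and the ratios overlapped between 5.51 and 7.19.

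Among the mitochondrially encoded genes the ATP synthase subunits changed most. The FPKM of mt-Atp6, the subunit that forms the proton channel, was 374, 445 and 647 in the control group and 477, 697 and 820 in the PZH group (lowest, median and highest), with 4 PZH mice above every control mouse. It rose by 0.44 (SE 0.17) on the log2 scale, with an adjusted p of 0.0499978 (limma), at the edge of the threshold. For mt-Atp8, a small subunit whose gene overlaps it, the FPKM was 601, 737 and 1027 in the control group and 791, 1090 and 1307 in the PZH group, a rise of 0.44 (SE 0.16, adjusted p = 0.0386, limma). PZH mice 5 and 6 lay within the control range for both genes, and the mean mt-Atp8 to mt-Atp6 ratio was 1.61 in control and 1.62 in PZH livers. Since the genes overlap, their calls are not independent of each other.

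Complex IV held the most abundant message of all members. The FPKM of mt-Co1, the catalytic subunit that binds oxygen, was 9632, 10997 and 12741 in the control group and 11681, 13481 and 16402 in the PZH group. It rose by 0.31 (SE 0.10, adjusted p = 0.0231, limma), and 4 PZH mice were above every control mouse. The FPKM of mt-Co3, a core subunit that lies beside it, was 2517, 2778 and 3198 in the control group and 2759, 3322 and 4251 in the PZH group, a rise of 0.26 (SE 0.10, adjusted p = 0.0464, limma), with PZH mouse 5 the only one inside the control range. The third core subunit, mt-Co2, which takes electrons from cytochrome c, did not pass the test, at 0.19 (95% interval -0.027 to 0.41).

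The complex I and III genes of mitochondrial DNA did not pass the test. Their log2 fold changes were 0.32 for mt-Nd1, 0.34 for mt-Nd2, 0.30 for mt-Nd3, 0.39 for mt-Nd4, 0.30 for mt-Nd4l, 0.21 for mt-Nd5 and 0.23 for mt-Cytb, the cytochrome b of complex III. Those nearest to the threshold were mt-Nd1 (adjusted p = 0.0519, limma) and mt-Nd4 (adjusted p = 0.0532, limma), both membrane subunits of complex I. The FPKM of mt-Nd4 was 1347, 1605 and 2179 in the control group and 1617, 2252 and 2772 in the PZH group, and 4 PZH mice lay above every control mouse.

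**Figure D2:**
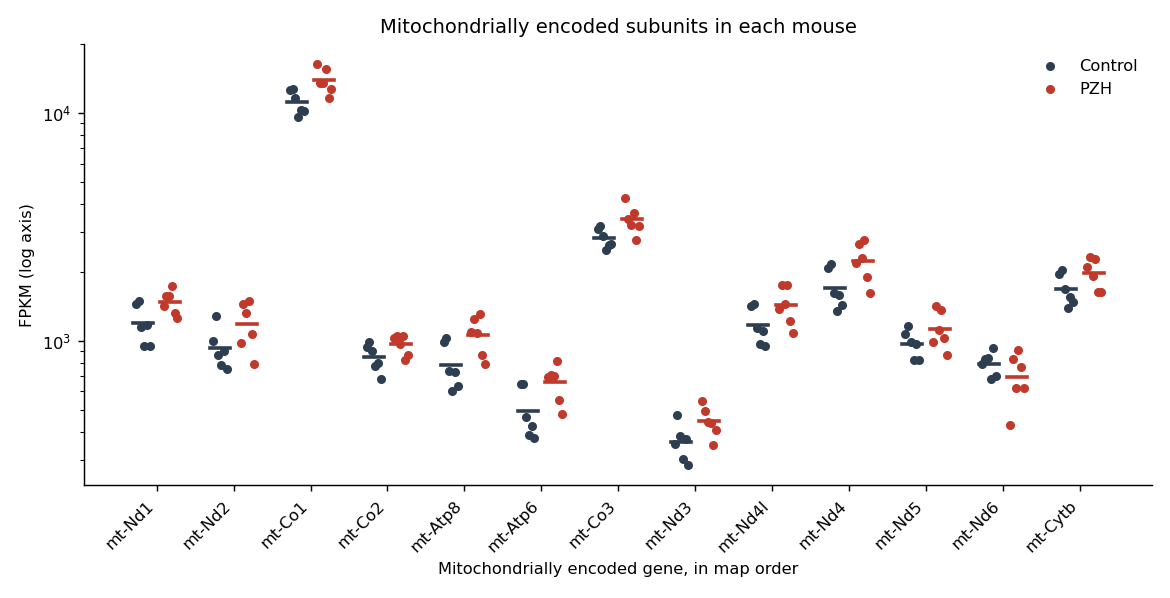
FPKM of each mitochondrially encoded member in each mouse on a log axis, with genes in map order, 1 point per mouse and a bar at the mean of the 6 mice of a group. All group means except that of mt-Nd6 are higher in the PZH group, and the levels span means of 403 FPKM for mt-Nd3 to 12546 FPKM for mt-Co1.

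The number of mitochondrially encoded genes called depended on which mouse was left out, while their median log2 fold change ran from 0.25 to 0.36. Leaving out control mouse 4, control mouse 5 or PZH mouse 4 left 0 of the 13 called, leaving out control mouse 3 or 6 or PZH mouse 1, 2 or 3 left 1, and leaving out control mouse 2 gave 8. With equal sums of protein-coding FPKM per mouse 1 gene was called, and without control mouse 1, PZH mouse 5 or PZH mouse 6 it was 6 genes. Over all 14195 genes 1798 were higher with all mice, 1621 without control mouse 4 and 1599 without control mouse 5. The number was 1608 without PZH mouse 4 and 1739 without control mouse 2.

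The 1 gene that went the other way was mt-Nd6, a membrane subunit of complex I and the only mitochondrially encoded member on the light strand. Its FPKM was 677, 809 and 930 in the control group and 428, 695 and 913 in the PZH group. Its log2 fold change of -0.22 (SE 0.16, adjusted p = 0.287, limma) did not pass the test, and PZH mouse 1 was the lowest of all 12 mice. A ratio within a mouse is free of scaling, and this one was chosen after the values were seen: mt-Nd6 over mt-Nd5, its neighbour on the other strand, was 0.714, 0.833 and 0.958 in the control group and 0.433, 0.6253 and 0.742 in the PZH group. Of the 6 PZH mice, 5 lay below every control mouse, but PZH mouse 6 at 0.7129 was only just below control mouse 2 at 0.7144.

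The ratio differed by -0.43 (SE 0.13) on the log2 scale (two-sided exact permutation test over 924 labellings, p = 0.00866, n = 6 per group; 0.0130 adjusted over 2 ratios, with 0.0022 the smallest p possible). The ratio was chosen from these same values, and the p-values do not cover that choice. With mt-Cytb, the neighbour on the other side, in place of mt-Nd5, the difference was -0.45 (SE 0.19, two-sided exact permutation p = 0.0130, n = 6 per group). This second ratio shares mt-Nd6 with the first, so the 2 are not independent. Without PZH mouse 1 the difference was -0.33 against mt-Nd5. The libraries were strand-specific, but whether strand was used when fragments were assigned is not given in the sources used here, and mt-Nd5 and mt-Nd6 overlap.

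**Figure D3:**
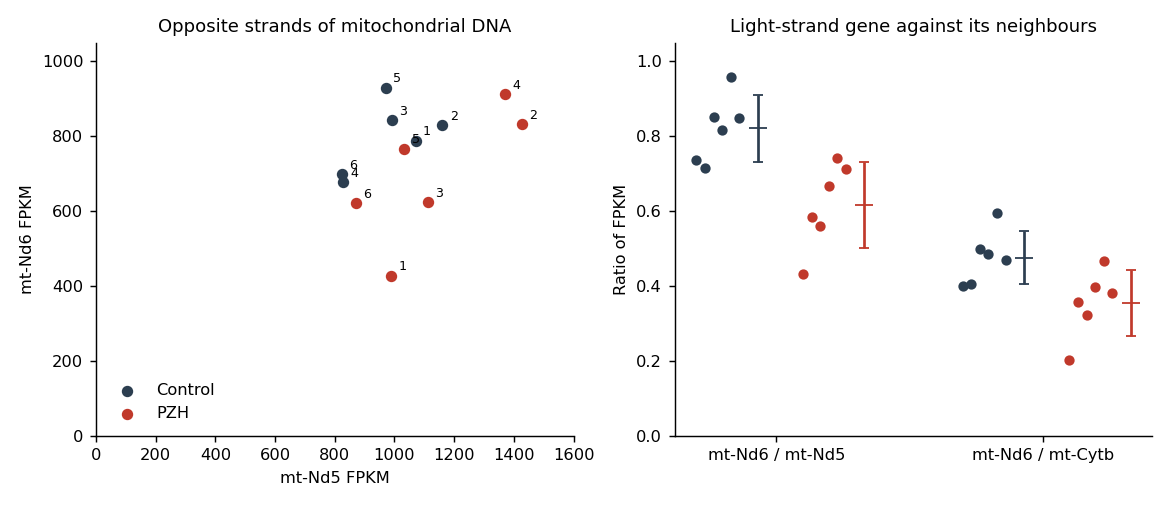
Left, FPKM of mt-Nd6 against FPKM of mt-Nd5 with 1 numbered point per mouse. Right, the ratios of mt-Nd6 to mt-Nd5 and to mt-Cytb in each mouse, with the mean ± SD of 6 mice. The mean mt-Nd6 to mt-Nd5 ratio was 0.821 for control and 0.617 for PZH livers, and 5 PZH points lie below all control points, that of PZH mouse 6 only just.

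Complex I, which oxidises NADH, had 10 of its 37 nuclear-encoded members higher in the PZH group, 27% where 12.7% of all genes were higher. The median log2 fold change of the 37 was 0.13. The clearest member was Ndufa13, an accessory subunit also known as GRIM-19 (ENSMUSG00000036199.9, chr8:69894180-69902558, minus strand, GRCm38). Its FPKM was 5.09, 6.46 and 7.85 in the control group and 8.58, 9.03 and 10.1 in the PZH group. All PZH mice were above all control mice, and it rose by 0.46 (SE 0.084, adjusted p = 0.000784, limma). Ndufv3, a small subunit of the module that oxidises NADH (ENSMUSG00000024038.17, chr17:31520115-31531331, plus strand), had 19.2, 22.1 and 24.3 FPKM in the control group and 25.8, 28.2 and 34.8 FPKM in the PZH group. It rose by 0.37 (SE 0.086, adjusted p = 0.00347, limma), also without overlap. These were the only members whose groups did not overlap, where 6.46% of all genes were higher and 17.9% lower without overlap.

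Accessory subunits of the membrane arm followed. The FPKM of Ndufb4 was 10.8, 13.9 and 15.9 in the control group and 14.7, 17.4 and 21.0 in the PZH group, a rise of 0.33 (SE 0.11, adjusted p = 0.0214, limma). For Ndufc1 the FPKM was 4.14, 5.01 and 6.20 in the control group and 5.06, 6.41 and 8.28 in the PZH group, and for Ndufc2 it was 14.3, 16.7 and 19.5 against 16.5, 21.2 and 24.9. They rose by 0.30 (SE 0.11) and 0.29 (SE 0.098). In each of these 3 genes 4 PZH mice lay above every control mouse and PZH mouse 2 was the lowest of its group, inside the control range. Ndufa5, an accessory subunit of the matrix arm, had 4.68, 5.30 and 6.65 FPKM in the control group and 6.24, 6.80 and 8.12 FPKM in the PZH group, a rise of 0.27 (SE 0.085, adjusted p = 0.0193, limma).

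The other complex I members that rose, named after their values were seen, were Ndufs1, the core iron-sulfur subunit that carries electrons in the matrix arm, at 0.27, and the accessory subunits Ndufs5 and Ndufa6 at 0.24 and Ndufb3 at 0.21. The remaining 27 nuclear-encoded complex I members did not pass the test. They included the core subunit Ndufv1, which binds NADH and FMN, at -0.13 (95% interval -0.37 to 0.12), and Ndufs7, a core iron-sulfur subunit, at -0.084 (95% interval -0.27 to 0.10).

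Complex II, which links the citric acid cycle to the chain, has 4 subunits, all nuclear-encoded. Of these 2 rose, where 12.7% of all genes were higher. The FPKM of Sdhd, the membrane anchor whose promoter is printed above, was 53.7, 57.9 and 68.6 in the control group and 62.9, 72.6 and 96.6 in the PZH group. It rose by 0.37 (SE 0.11, adjusted p = 0.0183, limma), and 4 PZH mice were above every control mouse. The iron-sulfur subunit Sdhb had 55.7, 64.6 and 75.5 FPKM in the control group and 60.1, 79.8 and 113 FPKM in the PZH group, a rise of 0.36 (SE 0.13, adjusted p = 0.0428, limma). PZH mice 2 and 3 lay within the control range. The catalytic subunit Sdha, the most abundant of the 4, had 87.2, 89.2 and 94.5 FPKM in the control group and 81.03, 93.9 and 103 FPKM in the PZH group and did not pass the test, at 0.047 (95% interval -0.088 to 0.18).

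In complex III, 1 of 8 nuclear-encoded members rose, 12.5% where 12.7% of all genes were higher. The FPKM of Uqcr11 was 21.2, 32.3 and 37.3 in the control group and 36.8, 39.7 and 42.9 in the PZH group, with only PZH mouse 2 within the control range. It rose by 0.36 (SE 0.11, adjusted p = 0.0214, limma), and control mouse 4 was the lowest of all 12 mice. Uqcrb, which helps to form the ubiquinone site and was the most abundant, had a log2 fold change of 0.19 (95% interval -0.018 to 0.39), and Uqcrfs1, the Rieske iron-sulfur protein, had -0.048 (95% interval -0.20 to 0.11).

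In complex IV, 2 of the 15 nuclear-encoded members rose, 13.3% where 12.7% of all genes were higher. The median log2 fold change of -0.0028 was the lowest of the 5 complexes. Cox5b, a peripheral subunit on the matrix side, had 9.26, 11.9 and 13.6 FPKM in the control group and 11.2, 15.7 and 16.4 FPKM in the PZH group. It rose by 0.36 (SE 0.11, adjusted p = 0.0215, limma), and PZH mouse 3 was the only PZH mouse within the control range. The other was Cox6b2, the testis form of a subunit at the outer face, which rose by 0.22 (adjusted p = 0.0386, limma) at a level of at most 0.452 FPKM in any mouse.

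Several complex IV subunits exist in 2 forms, and in these livers the form known from heart and skeletal muscle was near 0. The liver form Cox6a1 had medians of 106 and 107 FPKM in the control and PZH group, while the muscle form Cox6a2 ran from 0.646 to 2.56 FPKM over the 12 mice. Cox7a2 ran from 85.1 to 145 FPKM and Cox7a1 from 0.673 to 1.67 FPKM. Cox8a ran from 188 to 272 FPKM, and Cox8b reached at most 0.325 FPKM. None of these 6 passed the test, and their log2 fold changes, between -0.047 and 0.12, changed sign with the scaling or when single mice were left out.

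The abundant complex IV members differed little between the groups. Cox7c, a small subunit with the highest level in the complex, had 237, 241 and 255 FPKM in the control group and 195, 237 and 292 FPKM in the PZH group, at -0.026 (95% interval -0.21 to 0.16). Cox4i1, a subunit that regulates the enzyme, had medians of 92.8 and 92.9 FPKM in the control and PZH group, at -0.064 (95% interval -0.42 to 0.29). Cox6b1 and Cox7a2l, which links complexes III and IV, had log2 fold changes of -0.0028 and -0.028. For Cox7b, a small subunit, the FPKM was 65.0, 66.0 and 70.7 in the control group and 63.9, 77.8 and 100 in the PZH group, just outside the threshold at 0.24 (SE 0.092, adjusted p = 0.0519, limma). The 4 signs below 0 turned positive under median-ratio scaling.

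Ndufa4, named as a complex I subunit but known to belong to complex IV, had 75.9, 83.1 and 89.8 FPKM in the control group and 81.9, 91.4 and 122 FPKM in the PZH group. Its log2 fold change of 0.19 (95% interval -0.016 to 0.40) did not pass the test. Its relative Ndufa4l2, known to be induced by low oxygen, was listed at 0 in 3 mice and reached at most 0.853 FPKM. The log2 fold change of Ndufa4l2 was 0.31 (95% interval -0.045 to 0.66) and did not pass the test.

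Of the 17 nuclear-encoded members of the ATP synthase 3 rose, 17.6% where 12.7% of all genes were higher. The median log2 fold change of the 17 was 0.12. Atp5c1, the gamma subunit that forms the turning shaft, had 61.5, 66.2 and 70.6 FPKM in the control group and 68.1, 88.3 and 123 FPKM in the PZH group. It rose by 0.46 (SE 0.11, adjusted p = 0.00600, limma), and PZH mouse 2 was the only PZH mouse within the control range. Subunit e, encoded by Atp5k, had 0.881, 1.65 and 2.71 FPKM in the control group and 2.08, 2.43 and 3.11 FPKM in the PZH group. It rose by 0.41 (SE 0.16, adjusted p = 0.0448, limma), with 2 PZH mice above every control mouse and control mice 5 and 6 the lowest of all.

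The epsilon subunit Atp5e, named after its values were seen, rose by 0.26 (SE 0.092, adjusted p = 0.0342, limma). The catalytic beta subunit Atp5b, the most abundant nuclear-encoded member, had 257, 274 and 310 FPKM in the control group and 248, 288 and 298 FPKM in the PZH group, at 0.019 (95% interval -0.12 to 0.16). Of the 3 genes for the c subunit, which encode the same mature ring protein, none passed the test, with 0.12 for Atp5g1, 0.076 for Atp5g2 and 0.077 for Atp5g3.

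**Figure D4:**
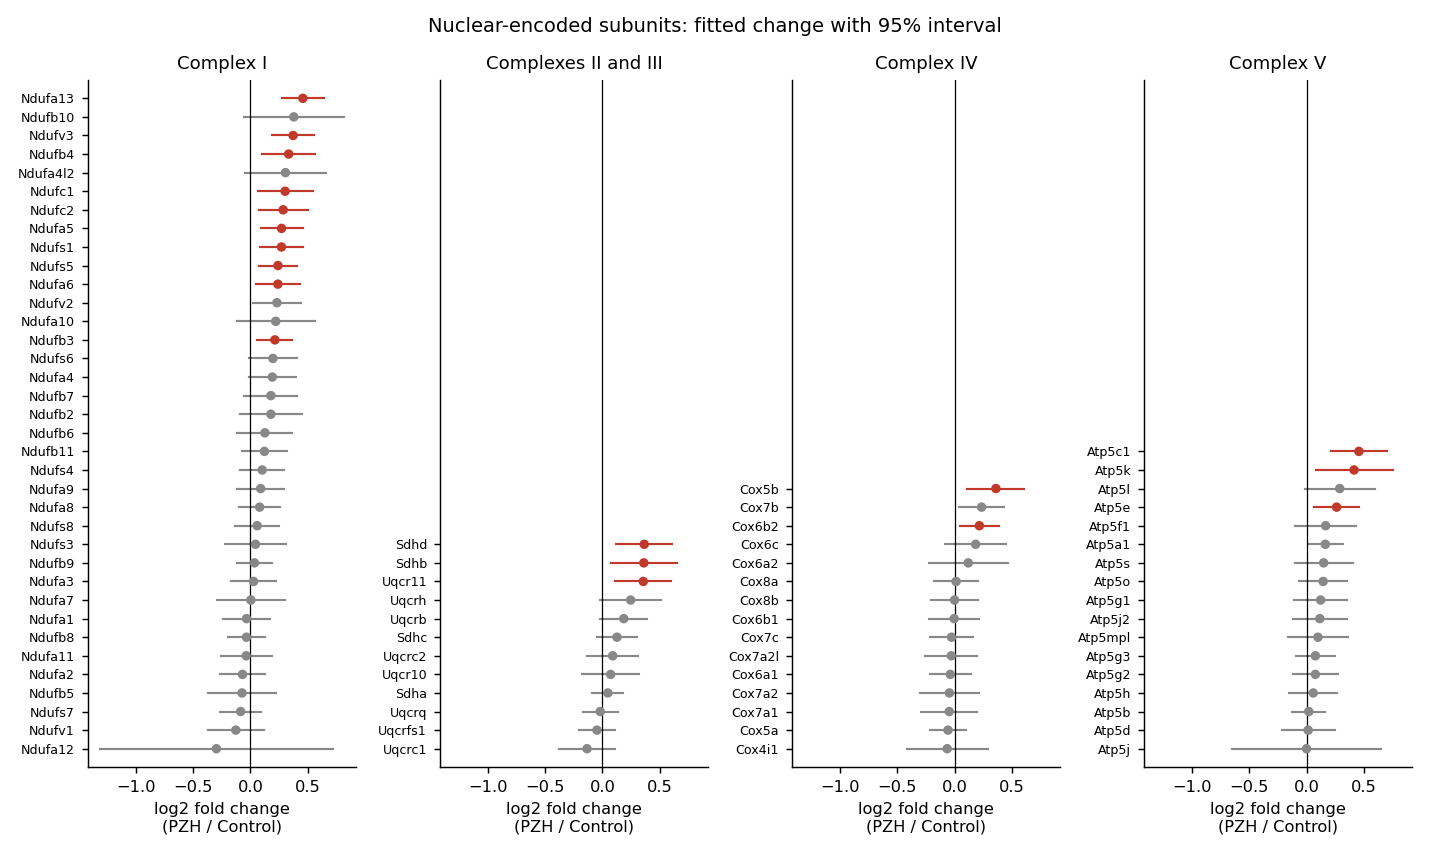
Log2 fold change of 80 of the 81 nuclear-encoded members with its 95% interval from limma on log2(FPKM + 1), by complex, where red marks the 18 members that rose and grey those not called. No member lies past a log2 fold change of 1 in either direction, and the intervals of most complex IV members span 0.

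Of the 12 nuclear-encoded rises given with values, Ndufa13, Atp5c1, Ndufv3, Sdhd and Uqcr11 stayed under an adjusted p of 0.05 in limma under every one of 19 alternatives. PZH mouse 1 had the highest value of the 12 mice in 41 of the 81 members. Without it 15 nuclear-encoded members rose, 12 of them among the 18, and without PZH mouse 4 the count fell to 11. Over all 14195 genes 1891 and 1608 were higher in these fits, in that order.

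Length moved with these values too. In PZH mouse 1, genes with a main transcript of up to 1000 bases had a median log2 deviation of 0.14 from the mean of all mice and genes of over 3000 bases had -0.26, among genes with a mean FPKM of at least 1. Over the same genes the median log2 fold change was -0.062 for the short and -0.20 for the long class. Nuclear-encoded members were short, with a median length of 745 bases. Of the 54 members of up to 1000 bases 12 rose with a median of 0.12, where 18.5% of such genes of that length were higher, and of the 27 longer members 6 rose with a median of 0.10, where 15.6% of genes of over 1000 and up to 3000 bases and 10.6% of longer genes were higher. The part of length in the rises was not tested beyond these values.

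At the level of single transcripts the 94 genes had 173 of the 29883 listed, and in PZH livers 5 were higher and 1 was lower (limma, adjusted p under 0.05, where 19.7% of all transcripts were called, 5.73% higher and 14% lower). The transcripts that rose were the listed ones of Ndufa13 and Sdhd and the main ones of Atp5c1 and Ndufa5, together with 1 of Cox6b2. None passed the 2-fold criterion that 3.23% of all transcripts passed, and no gene had transcripts called in both directions. The number that rose was 15 without control mouse 2 or PZH mouse 2, 3 without control mouse 5 and 2 without PZH mouse 6. Counts over all transcripts in these fits are not given here.

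The transcript that fell belonged to Ndufs7 and was named after its values were seen. Its FPKM was 14.9 ± 3.49 (SD, n = 6) among controls and 10.4 ± 0.746 (SD, n = 6) among PZH mice, a change of -0.45 (SE 0.13, adjusted p = 0.0312, limma). The second listed transcript of Ndufs7 had 9.24 ± 3.01 FPKM and 12.2 ± 1.195 FPKM (SD, n = 6 each) and a change of 0.41 that did not pass the test (adjusted p = 0.144, limma), and the gene as a whole was not called. The fall was no longer called when any 1 of 8 mice was left out.

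Related genes outside the symbol rule moved both ways. Of 263 such genes in 11 lists 25 rose and 62 fell, and with median-ratio scaling 48 rose and 15 fell. Over all genes 12.7% were higher and 32.1% lower, and with that scaling 19.8% and 19.3%. Among 8 further subunits and helpers of the chain, 2 rose and 0 fell, namely Atpif1, which inhibits the ATP synthase when it runs backwards, at 0.49, and the complex I helper Dmac1 at 0.17.

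Assembly factors, which build the complexes, were split. Of 52 in 5 lists 9 rose and 8 fell, where 12.7% of all genes were higher and 32.1% lower. Their median log2 fold change was 0.012. Complex I factors had 2 of 15 higher, Nubpl, which delivers iron-sulfur clusters, at 0.45 and Ndufaf3 at 0.35, and 0 lower. For complex II, Sdhaf4, which acts on Sdha, rose by 0.40 and Sdhaf2, which acts in its flavinylation, fell by 0.33. For complex III, Uqcc3 and the chaperone Bcs1l rose by 0.21 and 0.19 and Ttc19 fell by 0.24. Complex IV factors had 4 of 23 higher and 5 lower.

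Among the called assembly factors the largest rise was that of Cox20, which guides the mt-Co2 protein. Its FPKM was 9.37 to 14.7 in the control group and 15.9 to 26.9 in the PZH group, without overlap, a rise of 0.83 (adjusted p = 0.000275, limma). Coa6, which acts in copper delivery, rose by 0.47, while Sco2 and Surf1, which act in copper delivery and haem insertion, fell by 0.37 and 0.34. Of 4 complex V factors only Atpaf2 was called, and it fell by 0.21.

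Genes that copy and transcribe mitochondrial DNA had 2 of 16 higher and 2 lower, where 12.7% of all genes were higher and 32.1% lower. Mterf2 and the polymerase subunit Polg2 rose by 0.40 and 0.39, and the polymerase Polg and the transcription factor Tfb2m fell by 0.50 and 0.36. Genes of mitochondrial RNA processing and turnover had 6 of 17 lower, where 32.1% of all genes were lower, and 0 higher, with Fastkd3 at -0.60 and Trmt10c, a subunit of the enzyme that cuts transfer RNAs out of the long mitochondrial RNAs, at -0.58. The FPKM of Trmt10c was 5.50 to 9.66 in the control group and 4.38 to 5.57 in the PZH group, so the groups barely overlapped.

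Nuclear regulators of respiratory genes had 2 of 12 higher and 6 lower, where 12.7% of all genes were higher and 32.1% lower. The coactivators Ppargc1b and Ppargc1a, which switch on mitochondrial biogenesis, rose by 0.84 (adjusted p = 0.000833, limma) and 0.39 (adjusted p = 0.0296, limma), at mean levels of 2.37 and 2.41 FPKM in the PZH group. The third coactivator of the family, Pprc1, fell by 1.14 (adjusted p = 0.000474, limma), from 7.48 ± 1.93 to 2.86 ± 1.11 FPKM (SD, n = 6 each). Nrf1, whose motif was searched above, fell by 0.51 (adjusted p = 0.00166, limma), with 6.76 to 9.11 FPKM in the control group and 4.14 to 6.25 FPKM in the PZH group.

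Ribosomal protein genes were read against all genes, of which 12.7% were higher and 32.1% lower. Of 78 genes of the mitochondrial ribosome, which translates the messages of the 13 mitochondrially encoded genes, 8 rose and 25 fell with a median of -0.14, led by Mrpl42 at 0.52 and Mrps18b at -0.90. Of 80 cytosolic ribosomal protein genes 2 rose and 15 fell with a median of -0.22. With median-ratio scaling these medians were 0.036 and -0.033, beside 0.28 for the nuclear-encoded subunits.

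**Figure D5:**
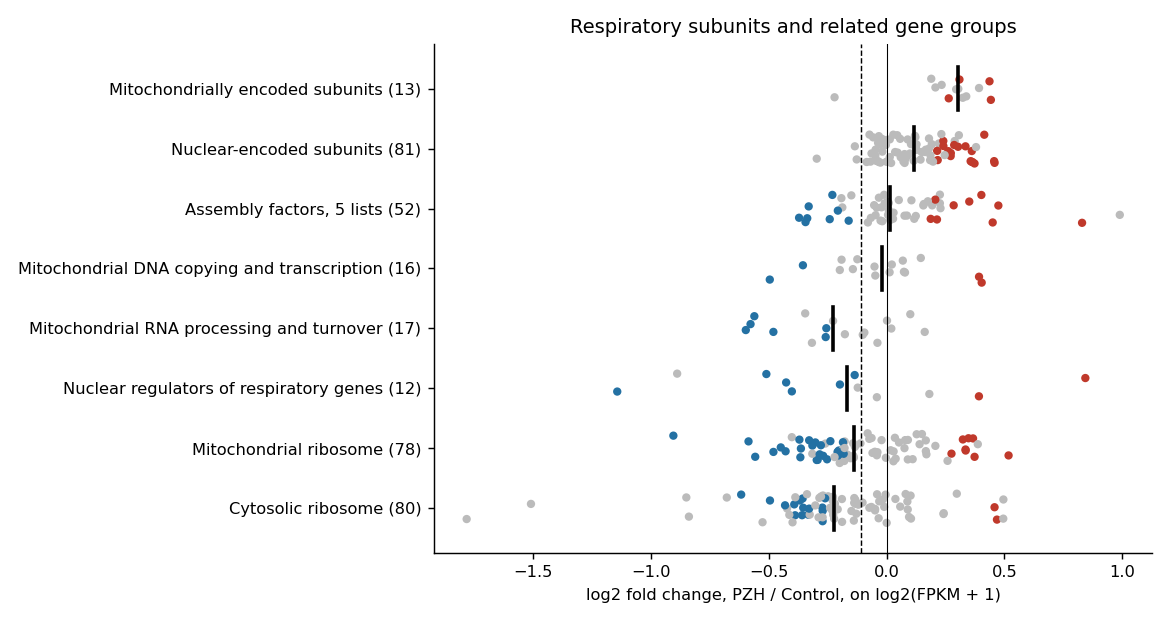
Log2 fold change of single genes on log2(FPKM + 1) in the respiratory subunits and related groups, with the number of genes in brackets, red and blue points for genes higher or lower in the PZH group in limma and grey points for the others. Black bars are group medians, the dashed line is the median of all genes at -0.11, and the 2 subunit groups have medians of 0.30 and 0.12 with no blue points.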

How the data were processed

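The authors made strand-specific libraries, free of ribosomal RNA, from livers of 12 mice and read them in pairs of 150 bases, then trimmed reads with Trimmomatic, mapped them to GRCm38 with HISAT2 version 2.1.0 and quantified Ensembl release 95 transcripts with StringTie version 1.3.5. The deposited values are FPKM per transcript, not counts, so the depth behind a value is unknown and precision rests on the spread between mice. Gene values are sums over transcripts by GENCODE M21, and 7 transcripts without a gene there stayed as features of their own. Groups came from the labels.

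Genes and transcripts were compared with limma 3.58.1 in R 4.3.3 on log2(FPKM + 1), without a filter, with Benjamini-Hochberg adjustment over the whole table. Single ratios were compared by exact permutation. In simulated data with 200 of 14195 genes changed, 48.5% were recovered at a log2 change of 0.5 and 91.5% at 1, with 7 and 16 unchanged genes called. The changed genes were drawn from the better expressed ones, while 44.8% of all genes were called in the data. These rates therefore do not give the share of changes found here, least of all for low members.

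The members and lists were chosen with earlier results of these data known. The genes given with values were all mitochondrially encoded members, up to 12 largest nuclear-encoded rises and falls among those called, the most abundant nuclear-encoded member of each complex, alternative subunits, transcripts past a 2-fold change or called in opposite directions within a gene, and up to 2 rises and 2 falls per related list. Alternatives were 3 scalings, a filter at a mean FPKM of 1, a smaller pseudocount (0.1), a mean-variance trend, the mouse number as a block and leaving out each mouse. Same-numbered mice did not deviate together (correlations of -0.078 to 0.093), so the main fit did not take the numbers as pairs. Long noncoding RNAs were not used here, and the values of 1 nuclear-encoded member, which counts in every total, are not reported here. Python 3.11.15 was used for the remaining steps.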

Additional observations from a re-analysis of the deposited data

Results flagged for a closer look

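The 45 named members, the summed FPKM of the mitochondrially and of the nuclear-encoded members, the ratio of these sums and the ratio of mt-Nd6 to mt-Nd5 were searched in each group of 6 mice for a single mouse whose gap to the nearest other mouse, divided by the range of the group, passed Dixon's critical value. This picked out 5 of 98 groups, and chance flags about 1 in 20. Sdhd had 68.6 FPKM in control mouse 6, above the other control mice. Cox5b had 11.2 FPKM in PZH mouse 3, below the other PZH mice at 15.5 to 16.4 FPKM. Cox4i1 had 139 FPKM in control mouse 6, and without that mouse its log2 fold change was 0.040. Cox6a2 had 2.56 FPKM in PZH mouse 1, and without that mouse its log2 fold change was -0.020. Cox7b had 70.7 FPKM in control mouse 2, above the other control mice.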

How the results depend on the processing

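No member fell in the PZH group at gene level under any of the 19 alternatives. The number of nuclear-encoded members that rose was 18 on FPKM as deposited, 37 with median-ratio scaling, 8 with the replicate block and 11 to 18 with 1 mouse left out. For mitochondrially encoded members it was 4, then 12 with median-ratio scaling, 1 with equal sums, 1 with equal sums of FPKM not encoded in mitochondria, 2 with a pseudocount of 0.1, 1 with a mean-variance trend, 5 with the replicate block and 0 to 8 with 1 mouse left out. Over all 14195 genes the number higher was 1798 on FPKM as deposited, 2807 with median-ratio scaling, 1571 with equal sums and 1692 with the replicate block. The nuclear-encoded median log2 fold change was 0.28 with median-ratio scaling and 0.085 to 0.15 with 1 mouse left out, and the mitochondrially encoded one 0.25 to 0.36. Transcripts that rose numbered 35 with median-ratio scaling, 8 with equal sums of FPKM not encoded in mitochondria, 3 with a pseudocount of 0.1, 13 with a mean FPKM of at least 1, 3 with the replicate block and 2 to 15 with 1 mouse left out, while those that fell numbered 0 with median-ratio scaling, a pseudocount of 0.1 or the replicate block and 0 to 1 with 1 mouse left out. The share of all transcripts called under these settings is not given here, so the transcript counts cannot be read against it. Related genes numbered 48 higher and 15 lower with median-ratio scaling, and 18 to 28 higher and 44 to 90 lower with 1 mouse left out. The cause of these moves was not tested, and the fits with 1 mouse left out also had fewer mice. The replicate block fitted mice of the same number as a pair, although no PZH mouse correlated best with the control mouse of its own number. Signs of uncalled members that reversed under median-ratio scaling gave Cox7c 0.17, Cox4i1 0.13, Cox6a1 0.15, Cox6b1 0.19, Cox7a1 0.049, Cox7a2 0.15, Cox7a2l 0.16 and Cox8b 0.017. With equal sums Atp5b was -0.024 and Cox8a -0.029, and with equal sums of FPKM not encoded in mitochondria they were -0.00113 and -0.00679. With 1 mouse left out the log2 fold change ran from -0.083 to 0.032 for Cox7c, -0.0023 to 0.054 for Atp5b, -0.17 to 0.040 for Cox4i1, -0.072 to 0.030 for Cox6a1, -0.020 to 0.20 for Cox6a2, -0.067 to 0.066 for Cox6b1, -0.14 to 0.0093 for Cox7a2, -0.074 to 0.030 for Cox7a2l, -0.020 to 0.074 for Cox8a and -0.044 to 0.037 for Cox8b. The depth of each library is not in the values, so no limit on low members such as Cox6b2 could be set.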

Other observations

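Some nuclear-encoded members, chosen after their values were seen, differed far more between mice of 1 group than between the groups. Ndufa12, a complex I accessory subunit with 1 listed transcript, was listed at 0 in 3 mice, stood at 6.50 FPKM in control mouse 1 and at 2.76 FPKM in PZH mouse 4, and stayed under 0.71 FPKM in the others. Atp5j, a subunit of the stalk that holds the ATP synthase together, fell into 2 levels in both groups, with 11.9, 12.6 and 11.1 FPKM in PZH mice 1, 3 and 6 and 12.3 and 10.2 FPKM in control mice 2 and 6, against 20.3 to 30.6 FPKM in the other mice. Uqcrc1, a core protein of complex III, had 45.4 FPKM in PZH mouse 1 and at least 69.2 FPKM elsewhere.

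Atp5l, subunit g of the ATP synthase, had 113, 80.0, 55.4, 83.4, 57.7 and 72.4 FPKM in PZH mice 1 to 6 and 58.3 to 64.6 FPKM in the control group, so 4 PZH mice lay above and 2 below every control mouse (log2 fold change 0.29, adjusted p = 0.116, limma). Ndufb10, a complex I subunit of the membrane arm, was above every control mouse in 5 PZH mice but had 3.28 FPKM in PZH mouse 1, the lowest of all 12.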
